A study of Mus musculus with 22 samples.

Results

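The 39 HOX genes of the mouse were described here across 18 lists of ChIP-seq regions. They were the RefSeq protein-coding genes on GRCm38 named Hoxa, Hoxb, Hoxc or Hoxd with a number, 39 of 21883 protein-coding genes on assembled chromosomes. They lie in 4 clusters, with 11 Hoxa genes on chromosome 6 (chr6:52154367-52261880), 10 Hoxb genes on chromosome 11 (chr11:96193316-96369254), 9 Hoxc genes on chromosome 15 (chr15:102920131-103037856) and 9 Hoxd genes on chromosome 2 (chr2:74667225-74766142). Each gene was measured over its body plus 1 kb on each side, called its window below, and its coverage is the percent of the bases of that window that lie inside regions of a list. The windows of 19 of the 39 genes overlap that of another HOX gene, because Hoxa3, Hoxb3, Hoxd3 and others have long gene models that contain their neighbours, so members are not independent.

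The cells were dermal fibroblasts of the mouse, the matrix-producing cells of the skin, either wildtype (WT) or without Lap2alpha (KO), a protein of the nuclear interior that binds the A-type lamins. The labels give the genotype as KO without saying how the gene was removed, or whether the cells came from 1 clone or 1 animal. In both genotypes lamin A/C was precipitated with antibodies 3A6 and E1, alongside 2 remodelling enzymes, BRG1, the motor of SWI/SNF complexes, and CHD4, the motor of NuRD. Lap2alpha was mapped with antibody 1H11 in WT cells. All cells were crosslinked with DSG and formaldehyde. Sonication lasted 16 or 20 cycles, with 1 library for each combination of genotype, antibody and cycles. WT and KO were compared within 8 pairs matched on antibody and cycles, and with 1 library per group no test was made, so differences below are given as values.

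HOX genes encode homeodomain transcription factors that set position along the body axis. Their order along the chromosome follows the order of the body regions they pattern: genes of low number (anterior) are used towards the head, genes of high number (posterior) towards the tail and the ends of the limbs. Polycomb complexes keep the genes off outside their domain and trithorax proteins, SWI/SNF among them, hold them on, and adult fibroblasts of the skin keep a HOX pattern that reflects the body site they came from. A-type lamins line the nuclear envelope and also occur in the nuclear interior, where Lap2alpha is found.

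Upstream of HOX gene starts, 8 stretches are shown because they differ in whether BRG1 lay on them. They are the 250 bases before the start in RefSeq GRCm38.p6, 5′ to 3′ on the gene's strand, and for each cluster they belong to the member whose start had a BRG1 region within 1 kb in most BRG1 libraries and the one where it had so in fewest. Hoxd3 was added after its values were seen, and Hoxc4 is the Hoxc gene with a sequence in the table. Capitals mark matches, on either strand, of 5 motifs, none of which contains another. These were the TATA box as TATAAA, the CCAAT box by its own letters, the GC box as GGGCGG, a composite site for HOX with PBX proteins as TGATTNAT and the AP-1 site as TGANTCA.
Hoxd3, chr2:74711743-74711992, plus strand: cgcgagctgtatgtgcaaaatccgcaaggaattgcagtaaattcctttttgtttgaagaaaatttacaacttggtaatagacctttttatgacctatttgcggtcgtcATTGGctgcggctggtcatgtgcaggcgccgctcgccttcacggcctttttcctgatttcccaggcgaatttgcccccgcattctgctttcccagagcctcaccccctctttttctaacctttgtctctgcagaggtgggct
Hoxc4, chr15:103034145-103034394, plus strand: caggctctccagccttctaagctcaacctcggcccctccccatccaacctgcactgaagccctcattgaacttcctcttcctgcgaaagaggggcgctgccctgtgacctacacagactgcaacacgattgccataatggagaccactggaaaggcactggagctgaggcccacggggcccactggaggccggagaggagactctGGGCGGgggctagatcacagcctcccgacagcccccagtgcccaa
Hoxd9, chr2:74697513-74697762, plus strand: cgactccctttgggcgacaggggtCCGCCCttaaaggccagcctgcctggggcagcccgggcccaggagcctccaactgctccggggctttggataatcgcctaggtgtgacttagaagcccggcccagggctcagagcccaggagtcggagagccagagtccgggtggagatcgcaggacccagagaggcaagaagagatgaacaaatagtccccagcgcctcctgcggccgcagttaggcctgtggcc
Hoxb4, chr11:96318017-96318266, plus strand: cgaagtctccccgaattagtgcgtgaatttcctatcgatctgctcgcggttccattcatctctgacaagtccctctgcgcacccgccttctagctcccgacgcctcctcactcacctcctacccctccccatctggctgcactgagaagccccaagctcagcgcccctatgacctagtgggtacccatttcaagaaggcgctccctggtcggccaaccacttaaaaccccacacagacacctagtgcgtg
Hoxa5, chr6:52204588-52204837, minus strand: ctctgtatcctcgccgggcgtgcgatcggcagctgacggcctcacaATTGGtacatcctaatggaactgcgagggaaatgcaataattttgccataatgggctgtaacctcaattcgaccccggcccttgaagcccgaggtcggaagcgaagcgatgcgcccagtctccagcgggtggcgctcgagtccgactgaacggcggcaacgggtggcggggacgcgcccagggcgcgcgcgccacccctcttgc
Hoxa11, chr6:52245811-52246060, minus strand: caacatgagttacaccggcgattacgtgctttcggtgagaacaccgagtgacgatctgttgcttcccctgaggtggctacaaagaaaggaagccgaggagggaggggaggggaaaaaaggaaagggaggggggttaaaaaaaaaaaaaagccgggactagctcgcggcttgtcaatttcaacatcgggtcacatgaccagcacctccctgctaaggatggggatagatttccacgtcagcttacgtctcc
Hoxb1, chr11:96365508-96365757, plus strand: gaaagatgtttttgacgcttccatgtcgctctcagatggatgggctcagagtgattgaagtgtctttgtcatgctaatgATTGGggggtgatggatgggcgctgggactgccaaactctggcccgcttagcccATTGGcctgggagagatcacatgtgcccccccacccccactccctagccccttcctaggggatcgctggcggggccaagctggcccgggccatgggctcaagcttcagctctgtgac
Hoxd1, chr2:74762730-74762979, plus strand: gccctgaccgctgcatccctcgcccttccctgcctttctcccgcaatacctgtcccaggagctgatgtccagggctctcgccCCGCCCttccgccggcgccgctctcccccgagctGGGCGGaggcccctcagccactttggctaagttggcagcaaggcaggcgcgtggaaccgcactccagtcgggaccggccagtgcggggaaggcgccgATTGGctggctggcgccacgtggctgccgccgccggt

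The Hoxd3 and Hoxc4 stretches were under BRG1 in all 4 libraries. At Hoxd3 BRG1 regions covered 100% of the 250 bases in WT at 16 cycles, in KO at 16 cycles and in WT at 20 cycles, and 79.6% in KO at 20 cycles. At Hoxc4 they covered 39.2% in WT at 16 cycles and 100% in the other 3 libraries. Hoxd9 was covered at 20 cycles alone, 100% in WT and 23.6% in KO, and Hoxb4 in WT at 20 cycles alone (100%). The stretches of Hoxa5, Hoxa11, Hoxb1 and Hoxd1 held no BRG1 region in any library, although Hoxa5 had one within 1 kb of its start in 3 libraries. CHD4 regions covered 100% of the Hoxd3 and Hoxb4 bases and 90.4% of the Hoxc4 bases in WT at 20 cycles, and 100% of Hoxc4 and 11.6% of Hoxd3 in KO at 16 cycles. Hoxd9 held no CHD4 region in these 250 bases.

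Motif matches, which are a description of the letters and not a site, occurred in stretches with and without BRG1. CCAAT was in the printed stretches of Hoxd3, Hoxa5, Hoxd1 and, at 2 places, Hoxb1, and GGGCGG in those of Hoxc4, Hoxd9 and, at 2 places, Hoxd1. Hoxb4 and Hoxa11 held no match. GC content was 49.2% at Hoxd3 and 71.6% at Hoxd1, the lowest and highest of the 8. The promoter table held 24 starts of 22 HOX genes and 21262 starts of all protein-coding genes. CCAAT stood in 58.3% of the HOX starts and 35.4% of all, GGGCGG in 41.7% and 42.6%, TATAAA in 16.7% and 11.6%, TGATTNAT in 8.33% and 2.52%, and TGANTCA in 4.17% and 6.13%. Mean GC was 57.6% ± 10.3 (SD) in the HOX starts and 55.5% ± 12 in all, and the observed over expected CpG ratio 0.639 ± 0.267 and 0.522 ± 0.335.

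From the clusters, 5 mature miRNAs are shown because their loci differed in BRG1. Each is printed 5′ to 3′ from RefSeq, with the seed (bases 2 to 8, which pair with target mRNAs) in capitals.
miR-196b-5p, next to Hoxa10: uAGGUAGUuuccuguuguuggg
miR-196a-5p, next to Hoxb9 and next to Hoxc10: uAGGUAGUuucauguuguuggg
miR-10a-5p, in Hoxb3: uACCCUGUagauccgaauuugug
miR-10b-5p, in Hoxd3 and Hoxd4: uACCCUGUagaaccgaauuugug
miR-615-3p, in Hoxc5: uCCGAGCCugggucucccucuu
The miR-196 products share the seed AGGUAGU and the miR-10 products the seed ACCCUGU. The miR-196 family is known to repress HOX mRNAs, HOXB8 among them.

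After merging, the shortest list was KO CHD4 at 20 cycles with 7283 regions and the longest KO E1 at 20 cycles with 233769, and lists covered 0.0861% to 3.61% of the genome. The sources used here give no read numbers, so the depth behind a region is unknown, and a list from more reads or a looser threshold covers more of every gene. For 3A6, BRG1 and CHD4 at 20 cycles the KO list held overlapping intervals and the WT list did not; the part of this in the differences was not tested. In these bulk cultures more cells with a protein on a gene and more protein per cell cannot be told apart. The label of the cells was checked on 10 fibroblast genes, all of which held BRG1 in every library: in WT at 16 cycles Pdgfra was lowest at 2.36% and S100a4 highest at 43.2%. Of 17 genes of keratinocytes, endothelium, leukocytes and melanocytes, 9 held BRG1 in all 4 libraries, where 48.8% of all genes did. The leukocyte gene Cd3e was at 0 in all 4. A BRG1 region is thus not specific to genes of the labelled cell type.

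By mean coverage, BRG1 covered more of the HOX windows than of the average gene. At 16 cycles the mean coverage of the 39 genes was 4.21% in WT and 11.6% in KO, and at 20 cycles 19.0% in WT and 14.9% in KO. Over all 21883 genes the same means were 2.55%, 5.82%, 7.49% and 6.27%, so the HOX mean was 1.65, 1.99, 2.54 and 2.38 times that of all genes. HOX genes are short, with a median body of 3.74 kb against 17.2 kb. Among genes of at most 10 kb (33 HOX genes of 7925), the ratios were 1.21, 1.37, 1.85 and 1.68, in the same order of libraries. A BRG1 region was present in 14 members in WT and 22 in KO at 16 cycles, beside 51.1% and 68.2% of all genes, and at 20 cycles in 32 and 27, beside 77.3% and 73.4%. A short window is less likely to hold a region, and among genes of at most 10 kb the shares were 24.2%, 48.5%, 78.8% and 63.6% of the HOX genes beside 23.8%, 43.0%, 53.3% and 48.3% of all, in the same order of libraries. Against all lengths the HOX share was lower in 3 libraries, and against short genes it was near the background in WT at 16 cycles and higher in the others. Across libraries, 14 of the 39 held a BRG1 region in every library, where 48.8% of all genes did. These 14 were the members with a region in WT at 16 cycles. Among genes of at most 10 kb the share was thus 24.2% of the HOX genes beside 21.7% of all, near the background. In 5 members (Hoxa11, Hoxb1, Hoxb13, Hoxc12 and Hoxd1) no library had a region, where 18.9% of all genes had none. All 5 are among the 33 HOX genes of at most 10 kb, and 40.8% of the short genes had none.

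**Figure D1:**
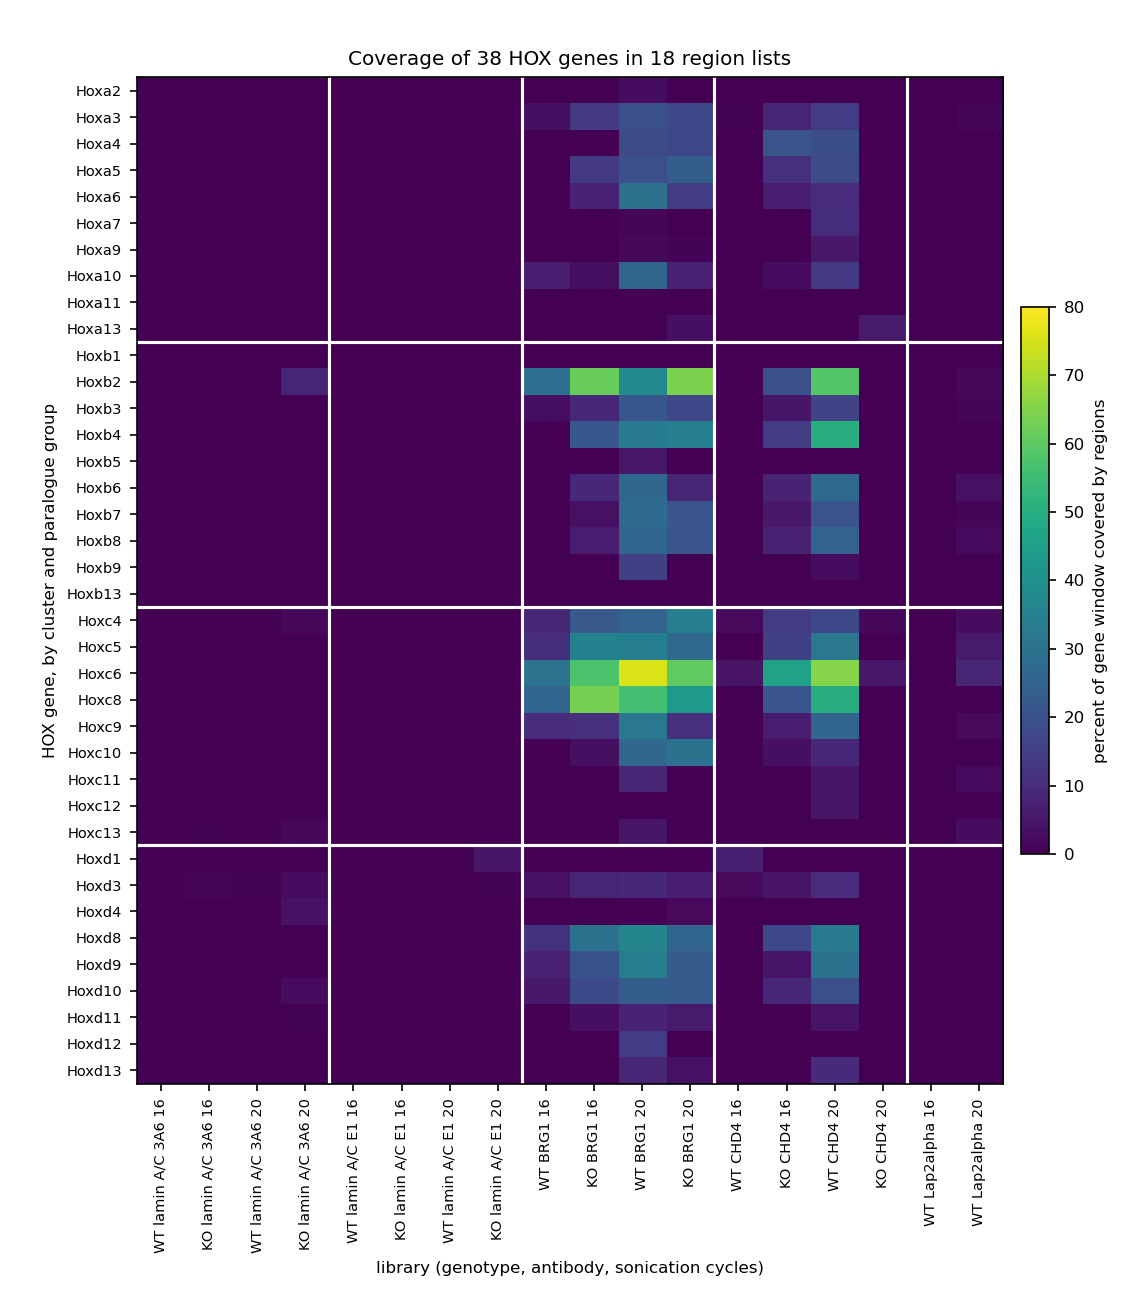
Percent of each gene window covered (colour, 0 to 80%), with 38 of the HOX genes in rows by cluster and paralogue group and the 18 libraries in columns by antibody, cycles and genotype. Hoxc6, Hoxc8 and Hoxb2 are the brightest BRG1 rows, and the lamin A/C columns are near 0 throughout, with Hoxb2 in KO 3A6 at 20 cycles the highest lamin value at 8.16%.

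**Figure D2:**
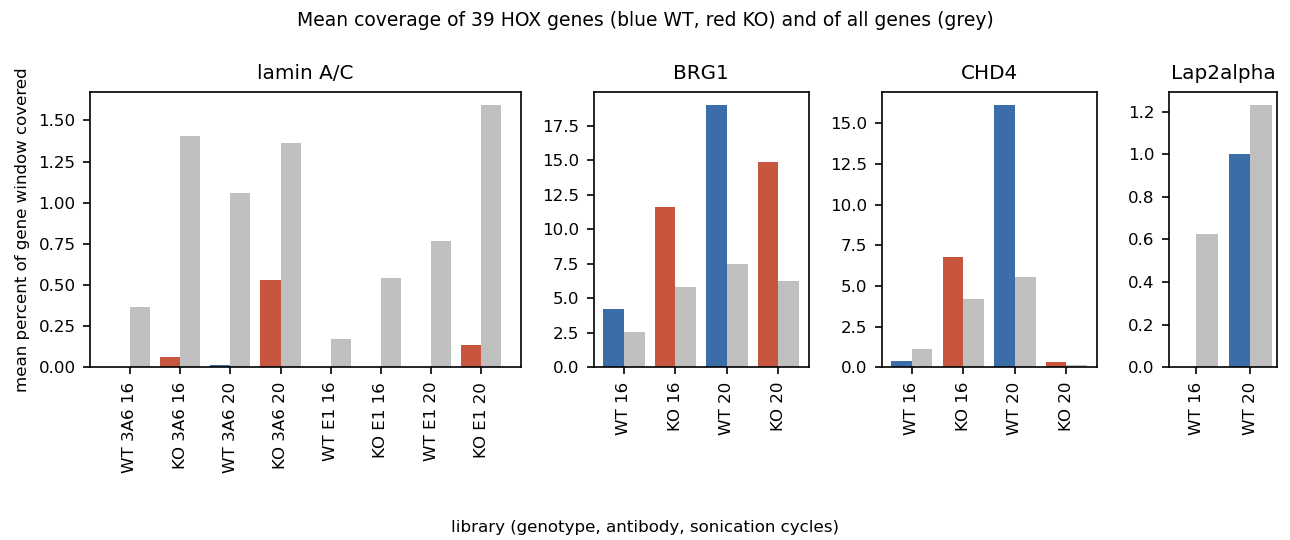
Bars give the mean percent of the gene window covered, on axes that start at 0 and differ between panels, for the 39 HOX genes (blue in WT, red in KO) and for all 21883 genes (grey), by library with its cycles. There is 1 library per bar and so no error bar; HOX bars stand above grey for BRG1 and below grey for lamin A/C in all libraries.

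The most densely covered members were Hoxc6, Hoxb2, Hoxc8, Hoxc5 and Hoxd8. Hoxc6, a central gene used in the thoracic region, was covered by BRG1 at 16 cycles over 30.4% of its window in WT and 57.2% in KO, and at 20 cycles over 75.4% and 60.4%. Hoxc8, also a thoracic gene, stood at 26.1% and 63.5% at 16 cycles and at 56.2% and 43.4% at 20 cycles, WT first. Hoxb2, a hindbrain gene of the anterior group, stood at 29.3% and 61.3%, then at 38.4% and 64.4%. These 3 genes were the members with at least 20% coverage in all 4 BRG1 libraries, a level that 1.07% of all genes reached. Hoxc5 was covered over 10.6%, 35.2%, 34.4% and 27.7% and Hoxd8 over 11.7%, 30.2%, 36.5% and 26.1%, in the order WT and KO at 16 cycles, then WT and KO at 20 cycles. At the other end Hoxa2, Hoxa7, Hoxa9, Hoxa13 and Hoxd4 averaged less than 1% over the 4 libraries.

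Coverage differed with place in the cluster. Posterior members (groups 9 to 13, 16 genes) had, pooled over the clusters, the lowest mean BRG1 coverage in every library: 1.87% in WT and 3.64% in KO at 16 cycles, 12.8% in WT and 6.82% in KO at 20 cycles. Central members (groups 4 to 8, 15 genes) stood at 5.83%, 18%, 27.7% and 22.3%, and anterior members (groups 1 to 3, 8 genes) at 5.87%, 15.5%, 15.2% and 17.2%. By median, central members were at 0 in WT at 16 cycles and at 8.94%, 26.8% and 21.0% in the other 3 libraries, and posterior members at 0, 0, 8.72% and 1.97%. Within clusters the order was not the same everywhere: in Hoxd the posterior genes averaged 2.60%, 8.21%, 17.7% and 11%, above the anterior 1.91%, 4.14%, 4.48% and 3.40% in all 4 libraries, and Hoxc has no anterior gene, so the pooled means mix clusters. The groups overlapped widely, since Hoxb2 of the anterior group and Hoxc6 of the central group were among the highest of all members and Hoxb1, Hoxd1, Hoxa2 and Hoxb5 of those groups were near 0.

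The clusters differed as well, and Hoxc carried the densest BRG1. At 16 cycles its 9 genes averaged 9.56% in WT and 21.4% in KO, while 20 cycles gave 29.3% and 23.0%. Its 4 central genes, Hoxc4 to Hoxc8, averaged 18.9%, 44.5%, 47.8% and 41.5% in the same order. Hoxa averaged 1.58%, 6.30%, 13.7% and 10.6%, Hoxb 3.24%, 11.1%, 19.4% and 16.6%, and Hoxd 3.16%, 8.84%, 14.9% and 10.1%. In Hoxd the covered part was narrow: Hoxd8, Hoxd9 and Hoxd10 lay between 17.8% and 36.5% in the 3 libraries other than WT at 16 cycles, while Hoxd4 stood at 2.16% in KO at 20 cycles and 0 elsewhere. In Hoxb, Hoxb13, which lies apart from the other genes, and Hoxb1 at the opposite end were at 0.

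**Figure D3:**
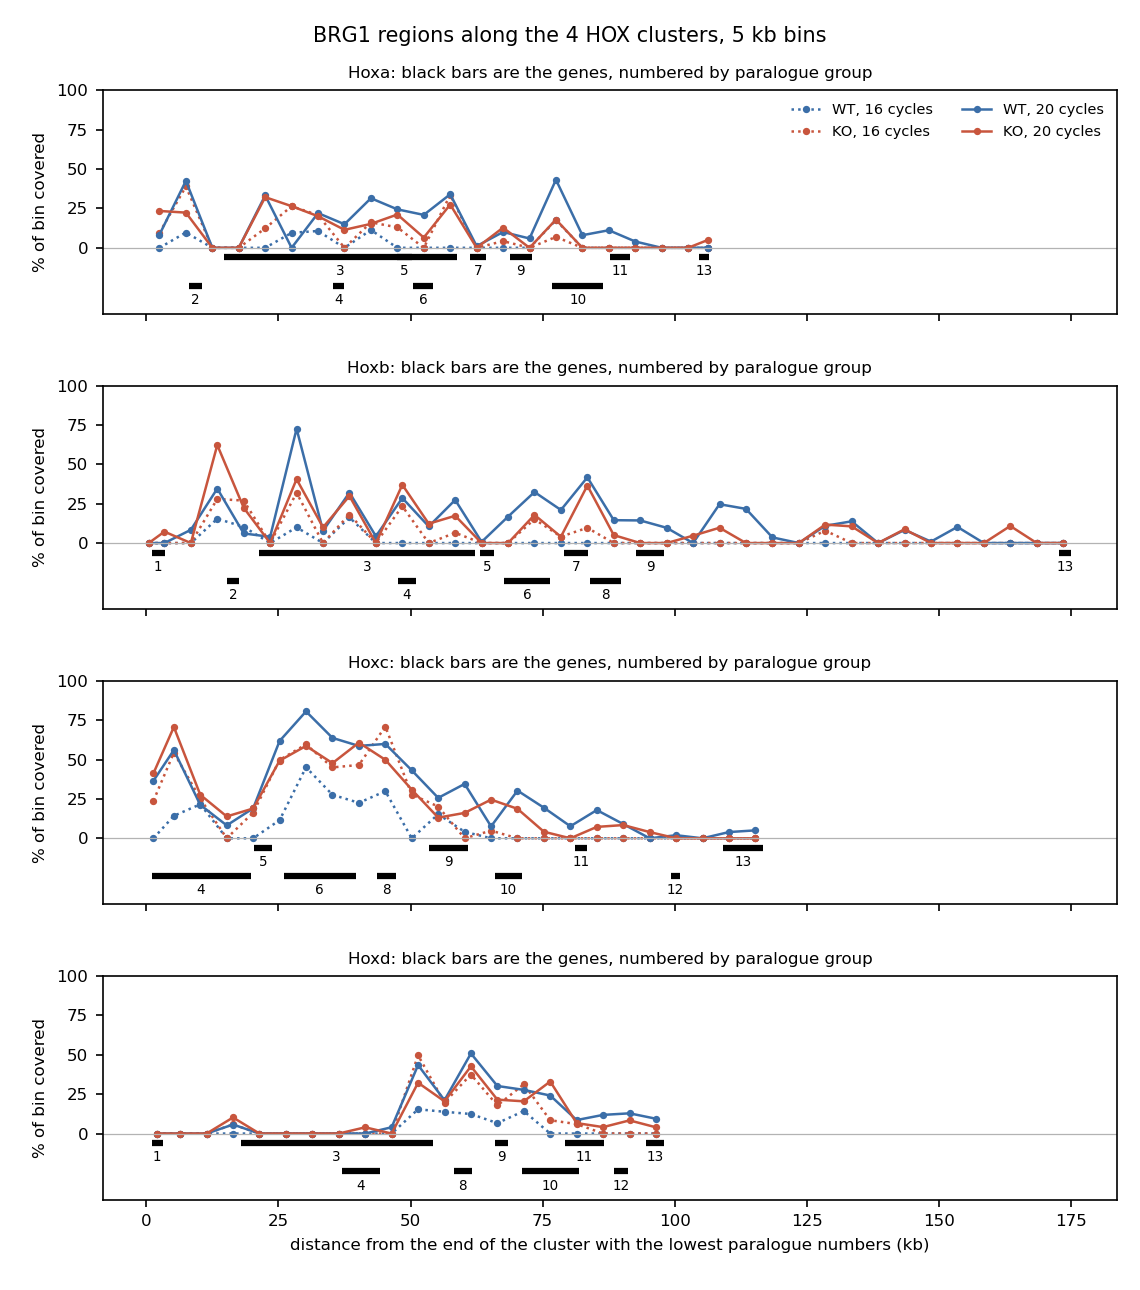
Percent of each 5 kb bin covered by BRG1 regions (vertical axis) against distance from the end of the cluster with the lowest paralogue number (horizontal axis, kb), for WT (blue) and KO (red) at 16 cycles (dotted) and 20 cycles (solid); black bars with numbers are 38 of the genes. The densest BRG1 runs over Hoxc4 to Hoxc9 in all 4 libraries, with WT at 16 cycles lowest over most of it, and the posterior ends are low.

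Some BRG1 sites were present whatever the genotype or shearing. In 25 stretches, 14148 bp in all, all 4 BRG1 libraries had a region: 12 in Hoxc, 6 in Hoxd, 4 in Hoxa and 3 in Hoxb. They took up 2.83% of the bases of the clusters against 0.906% of the genome, and their median width was 570 bp against 528 bp over 45670 such stretches in the genome. They made up 12.7% of the cluster bases covered in any BRG1 library, where the share over the genome was 15.4%. Of the widest, 1112 bp and 1096 bp lay in Hoxc6 (chr15:103005337-103006448 and chr15:103007745-103008840) and 968 bp likewise (chr15:103001920-103002887). The stretch at the start of Hoxd3 (chr2:74711794-74712590, 797 bp) takes in most of the upstream sequence printed above. Of the 25, CHD4 regions overlapped 25 in WT at 20 cycles (78.0% of such stretches over the genome), 21 in KO at 16 cycles (82.5%), 6 in WT at 16 cycles (58.6%) and 1 in KO at 20 cycles (5.20%).

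The difference in BRG1 between KO and WT had opposite signs at the 2 sonication lengths. Mean coverage of the 39 genes differed by 7.39 percentage points, KO minus WT, at 16 cycles and by -4.12 points at 20 cycles. Over all genes the differences were 3.27 and -1.23 points. At 16 cycles 21 members were higher in KO (61.9% of all genes were) and 1, Hoxa10, was lower (7.8% of all genes), and at 20 cycles 8 were higher (27.9% of all genes) and 26 lower (52.3% of all genes). The median difference over the members was 3.17 points at 16 cycles and -2.24 points at 20 cycles, beside 1.19 and -0.17 points over all genes. Among genes of at most 10 kb, 45.5% of the HOX genes were higher at 16 cycles beside 40.2% of all, and 63.6% were lower at 20 cycles beside 37.1%.

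Hoxa5, Hoxb2, Hoxb4, Hoxc4 and Hoxc10 were among the 6 of 39 members higher in KO in both BRG1 pairs, where 22.6% of all genes were. Hoxc4 alone of the 6 has a body longer than 10 kb, and of the short genes 14.5% were higher in both. Hoxa10 was lower in both (5.93% of all genes were). Hoxb2 had the largest mean difference, 29.0 ± 4.32 points (SD over 2 pairs), from 29.3% to 61.3% at 16 cycles and from 38.4% to 64.4% at 20 cycles. Both of its KO values lay above both WT values. Hoxc4 went from 8.63% to 22.3% and from 25.4% to 34.3%, a mean of 11.3 ± 3.31 points, with the WT value at 20 cycles above the KO value at 16 cycles. Hoxb2 and Hoxc4 were the members at least 5 points higher in KO in both pairs, as 2.98% of all genes were. Of these, Hoxb2 alone is a short gene, and 5.49% of the short genes were that much higher. Every KO library lay above every WT library for 2 members, Hoxb2 among them, as for 13.3% of all genes and 8.77% of the short ones.

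Hoxb4, whose upstream sequence is printed above, was at 16 cycles at 0 in WT and 21.8% in KO, and at 20 cycles at 33.0% and 34.4%. Hoxa5 was at 0 and 13.4%, then at 19.5% and 23.7%, and Hoxc10 at 0 and 3.44%, then at 26.6% and 30.1%. For these 3 genes the 2 WT libraries lay further apart than the genotypes did within a pair. Hoxa10, a posterior gene of limb and reproductive tract, was covered at 16 cycles over 6.66% in WT and 2.97% in KO, and at 20 cycles over 26.8% and 7.69%, a mean difference of -11.4 ± 10.9 points. Its 2 genotypes overlapped, because WT at 16 cycles was below KO at 20 cycles. The count of members higher in both pairs was 3 when windows reached 5 kb beyond the gene and 21 and 8 with 16 and 20 cycles alone.

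**Figure D4:**
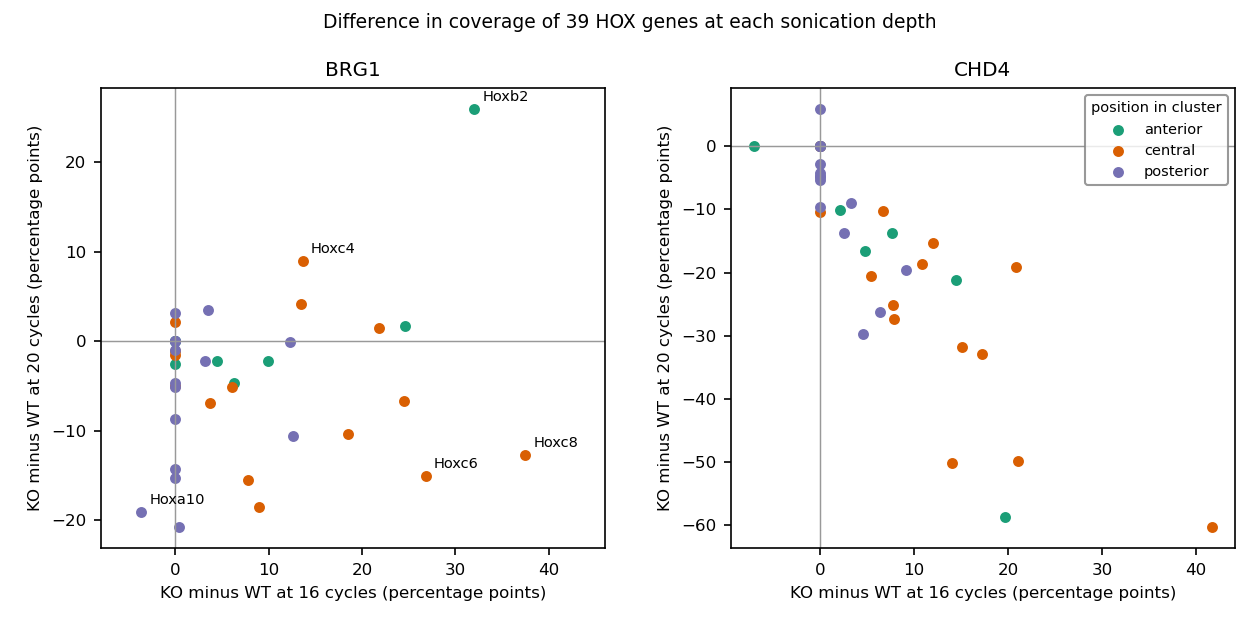
Each point is 1 of 39 HOX genes, with KO minus WT coverage in percentage points at 16 cycles (horizontal) and at 20 cycles (vertical), for BRG1 (left) and CHD4 (right), coloured by position in the cluster; points at 0 on both axes overlap. Hoxb2 and Hoxc4 lie in the upper right of the BRG1 panel and Hoxa10 in the lower left, and many of the other covered genes lie at the lower right or on the vertical line at 0 in both panels.

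The order of the members changed less than their level. Across the 39 genes, WT and KO BRG1 coverage had a Spearman correlation of 0.809 at 16 cycles and 0.855 at 20 cycles, and 16 and 20 cycles one of 0.708 in WT and 0.915 in KO. These points share libraries, many are at 0 and their windows overlap, so the values are a description.

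CHD4 was the antibody with the widest swing over the HOX genes. At 16 cycles mean coverage was 0.410% in WT and 6.77% in KO, and at 20 cycles 16.1% in WT and 0.33% in KO, beside 1.13%, 4.17%, 5.57% and 0.165% over all genes. The HOX mean was thus below that of all genes in WT at 16 cycles, at 0.362 times it, and 2.89 times it in WT at 20 cycles. Among genes of at most 10 kb the ratios were 0.186, 1.07, 1.90 and 0.919, WT and KO at 16 cycles, then at 20 cycles, so in KO at 20 cycles a ratio of 2.00 over all lengths became one below 1. KO minus WT was 6.36 points at 16 cycles and -15.8 points at 20 cycles, where the KO list held 7283 regions and the WT list 109769. No member was higher in both pairs (0.475% of all genes were) and none was lower in both (6.24%). At 16 cycles 22 members were higher in KO, beside 58.3% of all genes, and at 20 cycles 29 were lower, beside 68% of all genes.

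Hoxc6 again led, with CHD4 at 16 cycles over 4.33% of its window in WT and 46% in KO, and at 20 cycles over 65.5% and 5.17%. A CHD4 region was in 5 members in WT (35.2% of all genes) and 22 in KO (63.4%) at 16 cycles, and in 29 in WT (68.4%) and 3 in KO (13.4%) at 20 cycles. Among the short genes the HOX shares were 3.03%, 48.5%, 69.7% and 3.03% beside 11.3%, 38%, 45.2% and 4.08%, so in KO at 16 cycles the HOX share was below that of all genes and above that of short ones. Hoxc6 and Hoxc4 were the 2 members with a CHD4 region in all 4 libraries, as 8.95% of all genes had. Hoxb2 stood at 0 and 19.6%, then 58.7% and 0, Hoxb4 at 0 and 14%, then 50.1% and 0, Hoxc8 at 0 and 21.1%, then 49.9% and 0, and Hoxd8 at 0 and 17.2%, then 32.9% and 0. At the ends of clusters, Hoxd1 held CHD4 in WT at 16 cycles alone (7.06%), the member lower in KO there (7.28% of all genes), and Hoxa13 in KO at 20 cycles alone (5.86%), the member higher in KO there (0.964% of all genes). Within the 4 clusters, CHD4 bases lay largely in BRG1 regions of the same genotype and cycles. At 16 cycles 79.0% of them did so in WT and 90.1% in KO, and at 20 cycles 73.4% and 61.5%. In WT at 16 cycles the CHD4 bases came to 2.41 kb in 7 regions, and in KO at 20 cycles to 1.43 kb in 5. KO at 16 cycles had 27.2 kb and WT at 20 cycles 64.2 kb. The share over the genome was not computed, so these values have no background beside them.

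Lamin A/C regions were nearly absent from the HOX genes of WT cells. In WT no member held one with 3A6 at 16 cycles or with E1 at 16 or 20 cycles, and with 3A6 at 20 cycles only Hoxd3 did, over 0.528% of its window. Of all genes, 14.2%, 7.65%, 11.8% and 15.8% held a region in these 4 lists. Thus 38 of 39 members were free of lamin A/C in all 4 WT lists, where 77.3% of all genes held none. Among genes of at most 10 kb, 7.37% and 13.8% held a WT region with 3A6 at 16 and 20 cycles. With E1 3.39% and 10.8% did, and none of the 33 HOX genes of that length did in any WT list. In KO, 4 members held a region with 3A6 at 16 cycles (56.8% of all genes), 7 with 3A6 at 20 cycles (45.2%), 0 with E1 at 16 cycles (23%) and 2 with E1 at 20 cycles (23.1%). Over all 8 lists, 30 of 39 members had no region, beside 30.6% of all genes. Part of this gap goes with gene length. Among genes of at most 10 kb, 9.09%, 12.1%, 0 and 3.03% of the HOX genes held a region in the 4 KO lists, beside 23.7%, 22.6%, 10.2% and 19.1% of all, and 81.8% of the HOX genes had none in any list beside 54.6%.

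Mean lamin A/C coverage of the members differed by 0.178 ± 0.232 points, KO minus WT (SD over 4 pairs), higher in KO in 3 pairs and 0 in both genotypes in the E1 pair at 16 cycles. Over all genes it differed by 0.634 ± 0.358 points and was higher in KO in all 4 pairs. The spread over the HOX pairs was wider than the mean. No member was higher in KO in every pair (7.88% of all genes were) and none was lower in every pair (0.562%). The median member was at 0 in all 8 lists, and so was the median of all genes except in KO with 3A6 at 16 cycles (0.732%).

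Of the 9 members with a lamin A/C region, 5 were Hoxd genes. Hoxd3 held 1.53% in KO with 3A6 at 16 cycles and 2.41% at 20 cycles, beside 0 and 0.528% in WT, and 0.517% in KO with E1 at 20 cycles, where WT was at 0. Of its 2 KO regions with 3A6 at 16 cycles, one (chr2:74712207-74712464, 258 bp) lies in the BRG1 stretch at the Hoxd3 start, and the wider (chr2:74746741-74747068, 328 bp) overlaps neither BRG1 nor CHD4 of KO cells. Hoxd1 held 0.192% with 3A6 at 16 cycles and 4.76% with E1 at 20 cycles, both in KO, and Hoxd4, Hoxd10 and Hoxd11 held 3.81%, 2.28% and 0.444% in KO with 3A6 at 20 cycles alone. Outside Hoxd, Hoxb2 held the highest value of any member, 8.16% in KO with 3A6 at 20 cycles, from 1 region of 358 bp (chr11:96351996-96352353) that overlaps BRG1 of both KO libraries and CHD4 of 1. Hoxc4 held 1.82% in the same library, and Hoxc13 0.372% and 1.76% in KO with 3A6 at 16 and 20 cycles.

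Within the spans of the clusters, KO lists held 8 lamin A/C regions with 3A6 at 16 cycles, 12 with 3A6 at 20 cycles, 0 with E1 at 16 cycles and 4 with E1 at 20 cycles. Of these, 3, 5 and 0 of the 3 lists with regions overlapped a KO BRG1 region, where 13.6%, 8.43% and 2.01% of all regions of those lists did. One place recurred between antibodies: a KO 3A6 region of 16 cycles (chr2:74756215-74756446) and a KO E1 region of 20 cycles (chr2:74756007-74756302) overlap between Hoxd3 and Hoxd1. The numbers are small and neighbouring regions are not independent.

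The stretches without a lamin A/C region around the clusters were longer in WT. Around Hoxa the stretch without one ran for 2619 kb and 3568 kb in WT with 3A6 at 16 and 20 cycles, and for 12663 kb and 8153 kb with E1. In KO a region lay inside Hoxa with 3A6 at 16 cycles, and the stretch was 221 kb with 3A6 at 20 cycles, 309 kb and 721 kb with E1. Around Hoxb it was 2522 kb to 11098 kb in WT, and around Hoxc 689 kb to 5283 kb. Hoxd had the shortest in WT, 247 kb with 3A6 at 16 cycles and 547 kb and 629 kb with E1, and 1 region inside it with 3A6 at 20 cycles. At 1 end of Hoxc the nearest region was 19.4 kb away in WT with 3A6 at 16 cycles and 24.0 kb away in KO. For Hoxb with E1 at 20 cycles the KO stretch was still 5486 kb, and with E1 at 16 cycles 2556 kb. Over the genome, 42.5% of 100 kb tiles were free of lamin A/C in all 4 WT lists and 8.02% in all 4 KO lists.

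**Figure D5:**
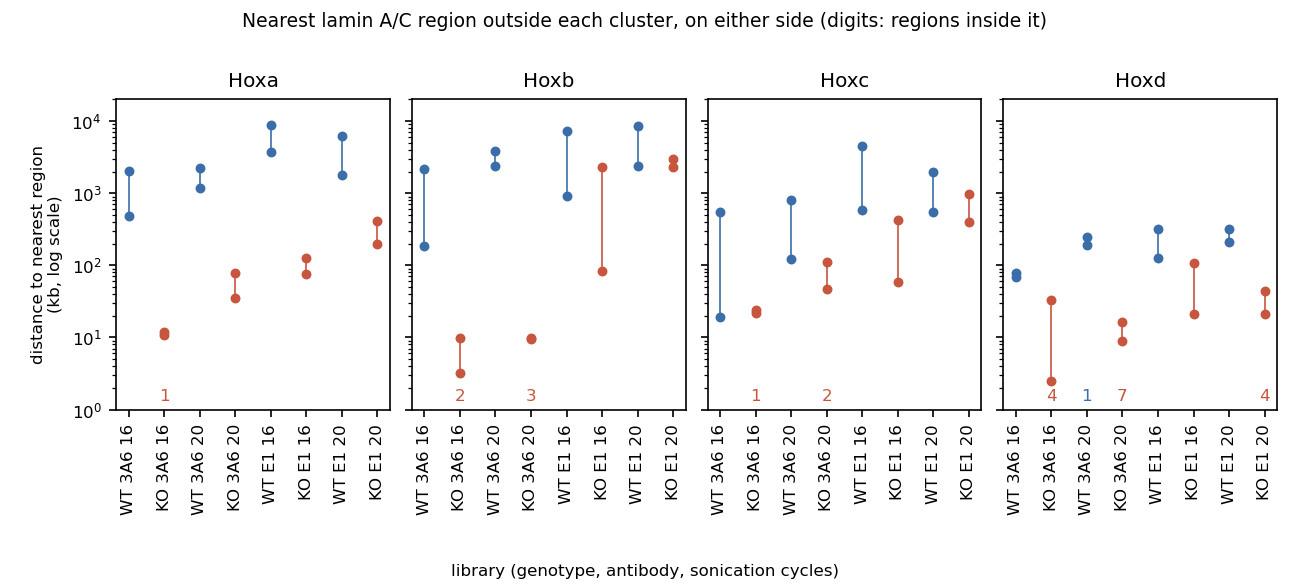
Points joined by a line give the distance (kb, log scale) from the low and high end of each cluster to the nearest lamin A/C region outside it, for 8 libraries per cluster (blue WT, red KO; antibody and cycles on the axis), and digits give the number of regions inside the cluster. Within each matched pair of Hoxa and Hoxd both KO points lie below both WT points, while for Hoxb with E1 at 20 cycles the points at 1 end, 2391 kb in WT and 2344 kb in KO, lie close together.

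Lap2alpha, mapped in WT cells alone, lay on HOX genes in 1 of 2 libraries. No member held a region at 16 cycles, where 29.5% of all genes did, and 13 did at 20 cycles, where 52.9% of all genes did. Among genes of at most 10 kb the shares at 20 cycles were 27.3% of the HOX genes and 22.7% of all, so the HOX share was below that of all lengths and above that of short genes. Mean coverage at 20 cycles was lower in the HOX genes on both counts. It was 1.00% beside 1.23% over all lengths, and 0.757% beside 1.44% among the short genes. At 16 cycles 8.20% of the short genes held a region. At 20 cycles Hoxc6 was highest at 8.69%, with Hoxc5 at 5.86%, Hoxb6 at 3.5% and Hoxc13 at 2.71%, and all 9 Hoxd genes were at 0. The clusters held 23 Lap2alpha regions at 20 cycles, and 16 of them overlapped a WT BRG1 region, beside 22.1% of all Lap2alpha regions of that list, and 14 a WT CHD4 region, beside 15.4%. Of the 25 stretches with BRG1 in all libraries, 10 held Lap2alpha at 20 cycles, 40% against 12.5% of such stretches in the genome. The widest Lap2alpha region in the clusters, 738 bp in Hoxc6 (chr15:103007924-103008661), lay within one of them.

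The miRNA loci were measured over the hairpin plus 1 kb on each side. Mir196b, 1.03 kb from Hoxa10, had BRG1 over 22.2% and 37.1% of its window in WT at 16 and 20 cycles and 0 in both KO libraries. Of 1005 miRNA hairpins, 7 (0.697%) had BRG1 within 1 kb in both WT libraries and in no KO library, so the genotypes do not overlap there, as at few hairpins. The Mir196b and Hoxa10 windows share bases, and Hoxa10 was the member lower in KO in both pairs. The 2 loci of miR-196a, which has the same seed, held BRG1 in KO at 20 cycles alone, 11.1% at Mir196a-1 and 9.50% at Mir196a-2. Mir10a held, at 20 cycles alone, 23.1% in WT and 1.14% in KO, while Mir10b, with the same seed, held none in any library, as was so for 61.4% of hairpins. Around miR-615-3p, measured over the mature sequence plus 1 kb, BRG1 at 16 cycles covered 28.5% in WT and 93.1% in KO, and at 20 cycles 87.7% and 74.0%. Of hairpins, 10.3% had BRG1 within 1 kb in all 4 libraries.

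At the starts in the promoter table the BRG1 share of HOX genes was lower at 16 cycles and near that of all genes in WT at 20 cycles. From Hoxc that table holds Hoxc4 alone, and it lacks Hoxb2, so the densest cluster is nearly left out. Of the 22 members with a start in the promoter table, 4 had a BRG1 region within 1 kb of it in WT and 8 in KO at 16 cycles, beside 36.2% and 53.3% of 17491 genes, and 13 and 11 at 20 cycles, beside 60% and 56.7%. With all 39 members, counted within 1 kb of either end of the gene, the shares were 25.6%, 51.3%, 74.4% and 61.5%. Those of all genes were 36.2%, 54.4%, 63.0% and 58.9%. The HOX share was thus lower in WT at 16 cycles and higher in WT at 20 cycles. In KO it was near the background at both lengths. Hoxc4, Hoxd3, Hoxd9 and Hoxd10 had one in all 4 libraries (34.5% of genes). CHD4 was within 1 kb of 1, 8, 11 and 0 of the 22 starts, beside 16.5%, 46.2%, 53.6% and 3.71% of genes, in the order WT and KO at 16 cycles, then WT and KO at 20 cycles.

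Just outside the clusters BRG1 varied from gene to gene. Evx1, a homeobox gene beyond Hoxa13, was at 0 in all 18 lists, and Evx2, its relative beyond Hoxd13, held BRG1 at 20 cycles alone, 4.22% in WT and 3.38% in KO. Skap2, an adaptor gene beside Hoxa, held 0.610%, 2.61%, 2.03% and 2.41% of BRG1, and Smug1, a DNA repair gene beyond Hoxc4, 4.40%, 18.4%, 26.3% and 16.5%, WT and KO at 16 cycles, then at 20 cycles. Ttll6 and Skap1 beside Hoxb, Calcoco1 beside Hoxc13 and Mtx2 beside Hoxd1 lay between 2.09% and 11% in all 4. Over the 40 nearest genes, 5 on each side of each cluster, the BRG1 means were 5.05%, 10.0%, 12.7% and 10.8%. The HOX means were 4.21%, 11.6%, 19.0% and 14.9%, below the neighbours in WT at 16 cycles. A BRG1 region lay in 34, 37, 38 and 39 of the 40, beside 14, 22, 32 and 27 of the 39 HOX genes, with lengths not matched. Lamin A/C regions were present in 5, 3, 1 and 0 of these 40 genes in WT, beside 0, 1, 0 and 0 of the 39 HOX genes. In KO they were present in 20, 13, 10 and 4, beside 4, 7, 0 and 2. The order is 3A6 at 16 and 20 cycles, then E1 at 16 and 20 cycles.

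The genes that act with or on HOX genes were counted in lists. Of 9 genes of TALE homeodomain cofactors, which bind DNA together with HOX proteins, 3 were higher in KO for BRG1 in both pairs, and Meis3 was lower. Pbx2 went from 0 to 10.6% at 16 cycles and from 18.2% to 23.8% at 20 cycles, Meis1 from 7.21% to 14.3% and from 11.3% to 15.6%, and Pknox2 from 5.70% to 8.48% and from 10.9% to 12.7%. Their list median difference was 3.62 points at 16 cycles and -0.94 at 20 cycles, beside 1.19 and -0.17 points over all genes. Of 17 Polycomb genes 6 were higher in both pairs, with Pcgf2 from 0 to 19.5% and from 19.1% to 20.8% and Cbx8 from 0 to 9.05% and from 37.5% to 42.7%, and Bmi1 was lower; of 6 trithorax genes 3 were higher (Kmt2b, Wdr5 and Rbbp5) and none lower. Median differences were 4.64 and -0.89 points for Polycomb and 3.53 and 0.19 points for trithorax genes.

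Of 7 upstream regulators of HOX genes, Cdx1 was higher in KO for BRG1 in both pairs and Rarb lower. Rarb, a retinoic acid receptor gene that acts on HOX genes, was also higher in KO for lamin A/C in all 4 pairs, by 1.18 ± 0.57 points: it stood at 1.56% and 2.27%, then at 1.83% and 3.01% with 3A6 and at 0.844% and 1.68%, then at 1.19% and 3.17% with E1, WT before KO and 16 before 20 cycles. Of 18 related homeobox genes outside the clusters 3 (Gbx1, Meox1 and Dlx1) were higher in KO for BRG1 in both pairs and none lower, with Dlx1 from 0 to 15% and from 14% to 19.6%. The shares of all genes given above, 22.6% higher and 5.93% lower, are the ones to set beside these BRG1 counts. For lamin A/C, 7.88% of all genes were higher in KO in every pair. Rarb is a long gene (chr14:16430839-17082331), and a long window is more likely to hold a region.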

How the data were processed

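ChIP-seq regions were taken from 18 deposited lists, 1 per library, of 22 samples; the 4 input samples were not analysed here. Each deposited list holds chromosome, start and end, with no score, on GRCm38. The submitters' processing notes name MACS2 2.1.4, HOMER 4.11.1, SAMtools, deepTools and bedtools; the sources used here do not give their roles, thresholds or read depth. The notes do not say whether replicates were pooled. The HOX genes, the other lists and the rules for naming genes were chosen with earlier results of these data known.

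Intervals of width 0 were dropped, overlapping intervals merged, and the percent of each RefSeq gene body plus 1 kb covered was computed in Python 3.11.15 with numpy 2.4.6 and pandas 2.3.3. KO minus WT was taken within 8 matched pairs. With 1 library per group there was no test, and an SD is over pairs that differ in antibody or sonication. Any HOX gene could be named. Values in every library were given per antibody for up to 5 members with the highest mean coverage and up to 5 each way with the largest mean difference among those in the same direction in every pair. Other genes named were the first neighbour on each side of a cluster and up to 3 per list by the same rule. Hoxc10, Hoxd3, Hoxd1 and Hoxa13 were described after their values were seen. Coverage was checked on simulated windows with known answers, and no window was wrong. HOX genes have short windows, so shares are also given among genes of at most 10 kb, a comparison extended after seeing the data. Alternatives were other windows, widths, subsets of pairs and a division by genome coverage. Of the genes, 1 HOX gene and 1 marker gene are not reported by name here; they remain in all counts and means.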

Additional observations from a re-analysis of the deposited data

Results flagged for a closer look

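KO minus WT for BRG1 had opposite signs at 16 and 20 cycles over the HOX genes and in each cluster. Over the 39 genes it was 7.39 points at 16 cycles and -4.12 at 20 cycles, beside 3.27 and -1.23 over all genes, where the signs were opposite as well. For Hoxa it was 4.72 and -3.09, for Hoxb 7.88 and -2.80, for Hoxc 11.8 and -6.24, and for Hoxd 5.68 and -4.73. By position, the mean of the 8 anterior members was higher in KO at both lengths, by 9.65 and 1.99 points. At 20 cycles 2 of these 8 were higher and 4 lower. The difference between the sonication lengths was not tested.

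For CHD4 the signs were opposite too: 6.36 points at 16 cycles and -15.8 at 20 cycles over the 39 genes. Over all genes the difference was 3.04 and -5.41 points. For Hoxa it was 5.73 and -9.67, for Hoxb 5.94 and -20.1, for Hoxc 11.1 and -22.5, and for Hoxd 2.89 and -11.8. This difference was not tested either. The KO CHD4 list at 20 cycles held 7283 regions and covered 0.0861% of the genome, against 2.00% in WT. With equal numbers of the widest regions, the mean difference of both pairs was -0.497 ± 8.36 points (SD). With all regions it was -4.72 ± 15.7 points. Divided by the genome percent, HOX coverage was 0.464 (WT) and 3.52 (KO) for 16 cycles. For 20 cycles it was 8.05 (WT) and 3.83 (KO). The part of list size in the 20-cycle difference was not tested beyond these alternatives.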

How the results depend on the processing

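The BRG1 difference over the HOX genes, 1.63 points as the mean of both pairs, was -4.12 with 20 cycles alone, and the CHD4 difference, -4.72, was 6.36 with 16 cycles alone. Members higher in KO for BRG1 in every pair, 6 as reported, were 3 with windows of 5 kb, 21 with 16 cycles alone, 2 when 5 points were required and 2 when every KO library had to exceed every WT library. For CHD4, 0 as reported, they were 22 with 16 cycles alone, 1 with 20 cycles alone, 1 with equal numbers of the widest regions and 2 after division by the genome percent. For lamin A/C, 0 as reported, they were 1 with 20 cycles alone and 2 with 3A6 alone, and the mean difference ran from 0.0303 (16 cycles) to 0.326 points (20 cycles). A count over fewer pairs, as with 16 cycles or 3A6 alone, cannot be below that over all pairs. The cause of the other changes was not tested. Some of these alternatives were chosen after seeing the data. No paired analysis was possible because each group holds 1 library, so no replicate number links a WT to a KO sample; the pairs used here are matched on antibody and cycles alone. Depth is unknown, so a gene at 0 may lie under a list's threshold.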
